A study of Mus musculus with 36 samples.

Results

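The D-type cyclins Ccnd1, Ccnd2 and Ccnd3 and 7 genes for inhibitors of cyclin-dependent kinases (CDKs) were followed through the differentiation of brown pre-adipocytes. The 10 genes were taken by name from the 55536 genes counted in each of 36 RNA-seq libraries. The inhibitors belong to the Cip/Kip family (Cdkn1a, Cdkn1b and Cdkn1c) and the Ink4 family (Cdkn2a, Cdkn2b, Cdkn2c and Cdkn2d). Of the 10, 9 passed the filter on low counts. Cdkn1c, which encodes p57Kip2, had 0 counts in 34 libraries and 1 count in each of the other 2, and was not tested.

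The study asked whether phosphorylation of the nuclear receptor RXRα at serine 22 matters for adipogenesis. Brown pre-adipocytes in which Rxra had been deleted by CRISPR/Cas9 were given back the receptor by retrovirus, either as RxraWT or as RxraSA, in which serine 22 is replaced by alanine (S22A). All 36 libraries therefore came from Rxra-/- cells that re-expressed the gene from a virus, and none came from cells with their own Rxra or with an empty virus. Each allele was put into clones 48 and 66, each grown from 1 cell, which gives 4 cell lines. Cells were grown to confluence (day 0) in medium that already held insulin and T3, which stayed in the medium to day 6. Dexamethasone, isobutylmethylxanthine and indomethacin were added for induction from day 0 to day 2 only. RNA was taken at days 0, 2 and 6, with 3 replicates for each clone, allele and day. Each day thus holds 12 libraries, 6 of each allele and 6 of each clone. Clone 48 was sequenced as library pool 1 and clone 66 as pool 2, so clone and pool cannot be told apart. The labels call the 3 replicates technical, while the study's methods describe independent replicates, so p-values may measure only the spread between cultures or preparations of 1 cell line.

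Progress through G1 depends on D-type cyclins, which bind CDK4 and CDK6 and start the phosphorylation of the retinoblastoma protein. Ink4 proteins bind CDK4 and CDK6 and keep the cyclin out, whereas Cip/Kip proteins bind complexes of cyclin and kinase, block CDK2 and can also help cyclin D and CDK4 to assemble. Confluent pre-adipocytes given an adipogenic cocktail can divide again before they leave the cycle and accumulate lipid. Cyclin D1 is known to restrain PPARγ in adipocytes, while cyclin D3 is known to support its activity.

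The genes lie on 5 mouse chromosomes (GRCm38, GENCODE M21). Cdkn2a (chr4:89274471-89294653) and Cdkn2b (chr4:89306299-89311039) are neighbours on the minus strand, Cdkn2c lies elsewhere on that chromosome (chr4:109660876-109667189), and Cdkn2d is at chr9:21288410-21291407. Cdkn1a (chr17:29090976-29100727) and Ccnd3 (chr17:47505051-47599691) share chromosome 17, Cdkn1b (chr6:134920401-134925513) and Ccnd2 (chr6:127125162-127152193) share chromosome 6, and Ccnd1 (chr7:144929931-144939925) and Cdkn1c (chr7:143458339-143461050) share chromosome 7. Cdkn2a has separate starts for p19Arf and p16Ink4a, and its count is the sum over both transcripts. The counting ignored strand and left out read pairs that met exons of 2 genes. Exons of LTO1 on the opposite strand cover 23.4% of the exonic bases of Ccnd1, where pairs could not be assigned to either gene. For Ccnd2, Ccnd3 and Cdkn1a such shared stretches cover between 3.9% and 7.7% for each overlapping gene. For Cdkn1c the stretch shared with Gm44732 covers 30.7%, so its count rests on the remaining bases.

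RefSeq promoter windows (GRCm38.p6) matched 7 of the 10 genes, with 11 windows, namely Ccnd3, Cdkn1a, Cdkn1b, Cdkn2a, Cdkn2b, Cdkn2c and Cdkn2d. Shown here are the upstream sequences of Cdkn1a and Cdkn2b, which had the largest rise and the largest fall among the inhibitors at day 2, and of Cdkn2a, the neighbour of Cdkn2b, with no exonic base of the annotation included. Capitals mark motifs found by search, and coordinates are those of the printed bases. Cdkn1a is read on the plus strand (chr17:29090729-29090975). Cdkn2b (chr4:89311040-89311282), the p19Arf start of Cdkn2a (chr4:89294654-89294869) and the p16Ink4a start (chr4:89282193-89282442) are read on the minus strand.
Cdkn1a: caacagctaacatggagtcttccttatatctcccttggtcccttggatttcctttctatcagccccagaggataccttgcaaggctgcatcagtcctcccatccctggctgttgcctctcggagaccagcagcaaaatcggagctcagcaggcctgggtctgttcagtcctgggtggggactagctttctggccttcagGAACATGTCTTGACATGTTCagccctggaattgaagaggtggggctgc
Cdkn2b: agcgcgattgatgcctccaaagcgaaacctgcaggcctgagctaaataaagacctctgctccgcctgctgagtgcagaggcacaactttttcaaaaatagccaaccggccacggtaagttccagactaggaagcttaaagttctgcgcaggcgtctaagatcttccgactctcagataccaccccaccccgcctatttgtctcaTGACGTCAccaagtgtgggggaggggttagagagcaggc
Cdkn2a, p19Arf start: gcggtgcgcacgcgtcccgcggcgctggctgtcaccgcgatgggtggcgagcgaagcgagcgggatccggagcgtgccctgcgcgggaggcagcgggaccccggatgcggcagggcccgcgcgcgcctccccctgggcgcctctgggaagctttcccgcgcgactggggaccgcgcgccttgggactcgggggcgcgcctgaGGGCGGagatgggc
Cdkn2a, p16Ink4a start: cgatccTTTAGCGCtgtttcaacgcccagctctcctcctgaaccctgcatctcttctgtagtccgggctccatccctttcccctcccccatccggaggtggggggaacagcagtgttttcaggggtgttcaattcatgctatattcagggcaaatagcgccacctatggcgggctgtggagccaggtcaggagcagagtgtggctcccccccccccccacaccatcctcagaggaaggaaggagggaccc

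The capitals in Cdkn1a mark a match to the p53 full site of 20 bases with at most 1 base off, a pattern present in 0.0761% of all 32851 windows of 250 bases. In Cdkn2b they mark 2 overlapping cyclic AMP response element half-sites (TGACGT, 6.47% of all windows) on opposite strands. At the p19Arf start of Cdkn2a they mark a GC box (GGGCGG, 32.7%), and at the p16Ink4a start an E2F site (TTTNGCGC, 1.13%). Of the 11 windows, 7 held a GC box, 2 a cyclic AMP response element half-site, and 1 each an E2F site and a p53 site. The letters TATAAA (12.4%), CACGTG (6.02%) and TTGCNNAA (9.56%) were found in none of the 11. All motifs were searched on both strands, and a match is a description of the letters only. The p53 motif was added after the Cdkn1a sequence had been seen, so its rarity is no test of that match.

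The libraries held between 11351078 and 24349263 counts (median 18338726). Rxra, the re-expressed gene, was read at 92.6 to 712 CPM in all 36 libraries, where CPM is the count relative to the total of its library after scaling by the trimmed mean of M-values (TMM). RxraSA against RxraWT gave log2 fold changes of -0.07, -0.03 and 0.03 for it at days 0, 2 and 6 (adjusted p = 1 each, edgeR), and the count does not tell the alleles apart. Of the 10 brown adipocyte markers, 9 were tested and 8 rose by day 2, and their summed level went from 109 to 228 CPM at day 0 to between 5972 and 10130 CPM at day 6. Ucp1, the defining gene of brown fat, stayed between 0 and 5 counts in every library, so this marker of the labelled cell type was near 0 at day 6 as well. The defining markers Adgre1, Ptprc, Cdh5 and Cd3e had at most 1 count in any library. Other genes of such marker lists were read. At day 0 the summed macrophage markers had 6.69 to 13.0 CPM and the endothelial markers 0.988 to 2.43 CPM. Smooth muscle and mural markers summed to 130 to 439 CPM at day 0, 3.95 to 6.88 CPM at day 2 and 37.8 to 68.1 CPM at day 6.

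Of the 9 tested genes, 9 passed the threshold (adjusted p under 0.05, edgeR's quasi-likelihood test) at day 2 against day 0, when 73.3% of all 16723 genes tested did so. At day 6 against day 0 the number was 8 of 9 (68.3% of all genes), and at day 6 against day 2 it was 7 of 9 (62.0%). Since most genes changed between days, these counts alone say little about the 9 genes, and the direction and size of each change are given instead. The 12 and 12 libraries did not overlap for 6 genes at day 2 against day 0 (27.7% of all genes), 5 at day 6 against day 0 (23.2%) and 4 at day 6 against day 2 (17.1%). Because these are bulk libraries, fewer cells that express a gene and less RNA per cell cannot be told apart.

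**Figure D1:**
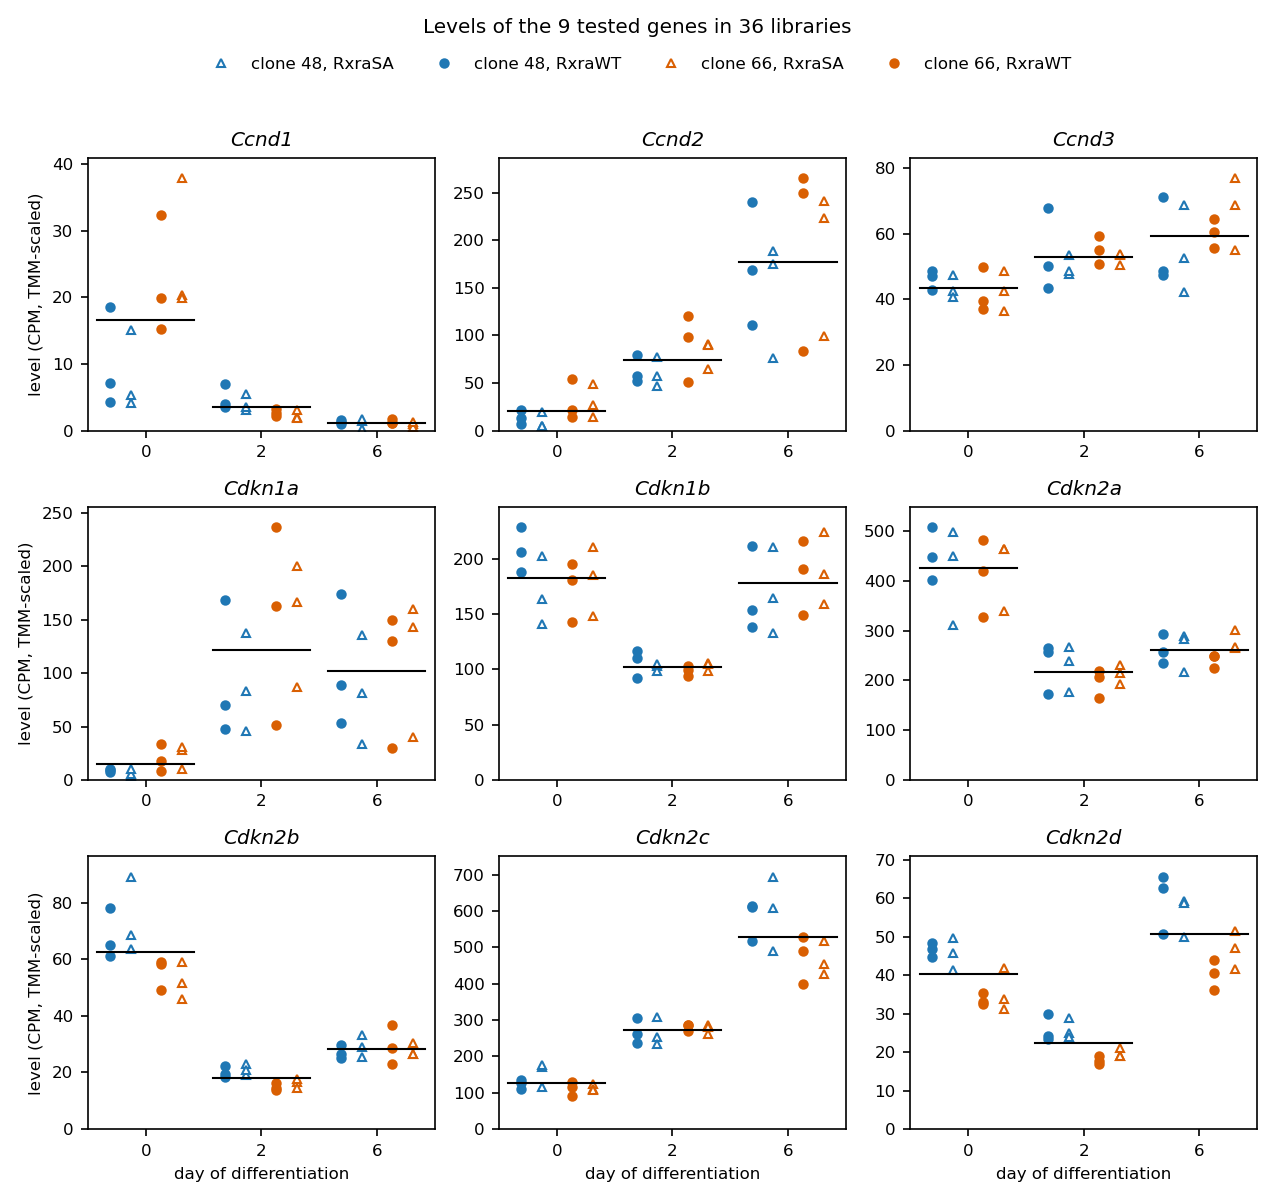
Level of each tested gene (CPM, TMM-scaled, linear axis from 0) in every library by day of differentiation, with clone 48 in blue, clone 66 in orange, RxraWT as filled circles and RxraSA as open triangles. Black lines are means over the 12 libraries of a day. Ccnd1 fell from day 0 to day 6 while Ccnd2 and Cdkn2c rose, and 0 of the 9 genes passed the threshold between filled and open symbols on any day.

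The D-type cyclins moved apart. Ccnd1, which encodes cyclin D1, ranged from 4.19 to 37.9 CPM at day 0 (median 16.9), from 1.85 to 7.004 CPM at day 2 (median 3.22) and from 0.278 to 1.76 CPM at day 6 (median 1.26). Every day 6 library lay below every day 2 library, whereas days 0 and 2 overlapped through the clone 48 libraries of day 0. Ccnd1 fell by 2.18 on the log2 scale at day 2 against day 0 (SE 0.32, adjusted p = 2.04e-07, edgeR), a 4.54-fold decrease. From day 0 to day 6 it was 13.4-fold lower (log2 fold change -3.75, SE 0.34, adjusted p = 9.03e-12, edgeR). At day 6 the counts behind these values were 5 to 32 per library, which makes single libraries imprecise.

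Ccnd2, which encodes cyclin D2, took the opposite course. It ranged from 4.70 to 54.3 CPM at day 0 (median 17.0), from 46.8 to 120 CPM at day 2 (median 71.4) and from 76.3 to 265 CPM at day 6 (median 182). The 2 highest day 0 libraries, the third RxraWT and RxraSA libraries of clone 66 (54.3 and 49.4 CPM), reached into the range of day 2, and days 0 and 6 did not overlap. The rise was 3.75-fold at day 2 (log2 fold change 1.91, SE 0.28, adjusted p = 2.67e-07, edgeR) and 9.09-fold at day 6 against day 0 (log2 fold change 3.18, SE 0.30, adjusted p = 1.14e-11, edgeR). Between days 2 and 6 it rose 2.43-fold (adjusted p = 0.000122, edgeR). Within each series of libraries that share a cell line and replicate number, Ccnd2 was higher at day 2 than at day 0 in 12 of 12 and Ccnd1 was higher in 0 of 12.

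Ccnd3, which encodes cyclin D3, changed the least of the 3. Its levels were 36.5 to 49.8 CPM at day 0 (median 42.8), 43.4 to 67.8 CPM at day 2 (median 52.2) and 42.2 to 76.9 CPM at day 6 (median 58.0), so all days overlapped. The increase at day 6 against day 0 was 1.36-fold (log2 fold change 0.44, SE 0.09, adjusted p = 2.82e-05, edgeR). That at day 2 against day 0 was 1.21-fold (log2 fold change 0.28, SE 0.09, adjusted p = 0.00462, edgeR). That call was lost without TMM, when only the library totals were used for scaling (log2 fold change 0.02, adjusted p = 0.847, edgeR), and after the omission of all libraries numbered 2 (0.25, adjusted p = 0.0818, edgeR). In clone 48 alone neither passed the threshold (log2 fold changes 0.19 and 0.31, adjusted p = 0.258 and 0.0788, edgeR). Between days 2 and 6 the log2 fold change was 0.17 (adjusted p = 0.0907, edgeR), and with the replicate number as a block it was 0.16 and passed (adjusted p = 0.0236, edgeR). Scaled by the library totals it was 0.23 and passed as well (adjusted p = 0.0107, edgeR). It also passed without the first RxraSA library of clone 48 at day 6 (0.20, adjusted p = 0.0324, edgeR) or the third RxraWT library of that clone at day 2 (0.21, adjusted p = 0.0322, edgeR). Bysl, which shares exonic bases with Ccnd3 on the opposite strand, had 12.3 to 36.8 CPM at day 0 and 49.7 to 86.2 CPM at day 2, and its part in the Ccnd3 values was not tested.

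Levels per kilobase of exon put different genes on a rough common scale. The length used is the union of all annotated exons, which can exceed that of the transcript present. For Ccnd1 it includes the 23.4% of bases where pairs could not be assigned. Shares, ratios and order between genes depend on these lengths. Per kilobase, the 3 cyclins summed to 10.7 ± 4.16 CPM per kb before induction, 14.6 ± 2.95 on day 2 and 25.8 ± 8.23 on day 6 (mean ± SD, n = 12 libraries each). Ccnd3 held the largest mean share of that sum at day 0 (51.5% ± 16.9) and Ccnd2 the largest at day 6 (70.9% ± 7.61). The day 0 lead of Ccnd3 came from clone 48 (64.7% ± 12.9, with Ccnd1 at 21.3% ± 8.33). In clone 66 Ccnd3 and Ccnd1 held similar shares at day 0 (38.3% ± 6.39 and 38.8% ± 4.20, n = 6 libraries per clone). The share of Ccnd1 went from 30.1% ± 11.1 at day 0 through 5.18% ± 2.04 to 1.04% ± 0.410 at day 6. The ratio of Ccnd2 to Ccnd1 per kilobase was between 0.351 and 0.918 at day 0, between 5.69 and 24.6 at day 2, and between 35.4 and 210 at day 6. On this scale Ccnd1 was the higher of the pair in every day 0 library and Ccnd2 the higher in every library of days 2 and 6.

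**Figure D2:**
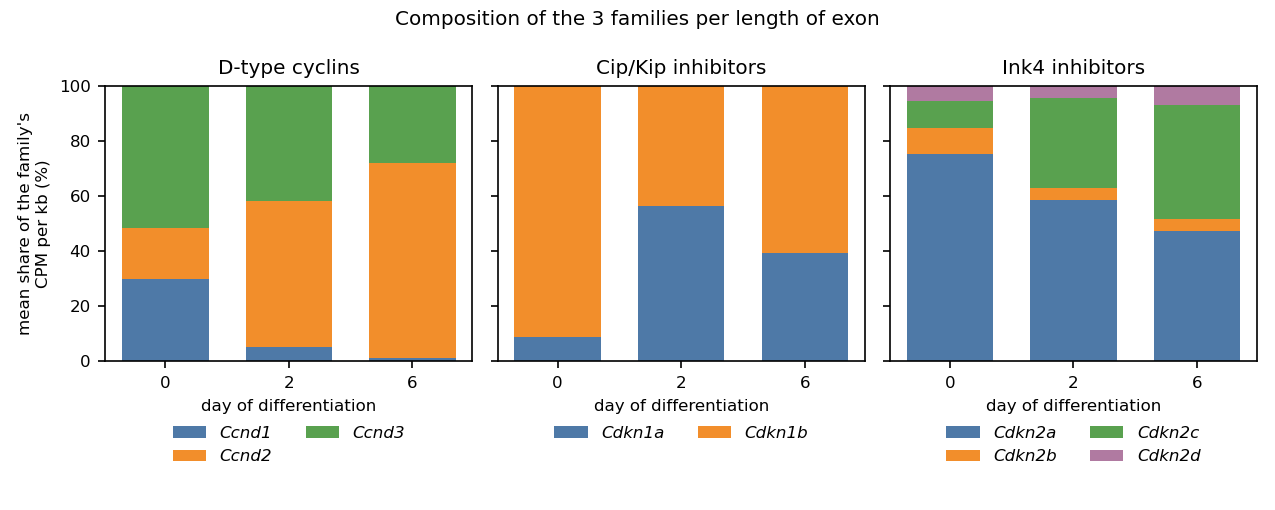
Mean share (%) of each gene in the summed level per kilobase of exon of its family, by day of differentiation, over 12 libraries per day, as stacked bars. The Ccnd2 share of the D-type cyclins goes from 18.5% at day 0 to 70.9% at day 6, and the Cdkn2c share of the Ink4 family from 9.88% to 41.6%.

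Among the Cip/Kip inhibitors, Cdkn1a rose and Cdkn1b dipped. Cdkn1a encodes p21Cip1, a target of p53 that is also induced during differentiation. It had 3.16 to 34.0 CPM at day 0 (median 10.2), 45.4 to 237 CPM at day 2 (median 113) and 30.0 to 174 CPM at day 6 (median 110). No day 2 library was as low as any day 0 library, while the highest day 0 library exceeded the lowest of day 6. Its increase was the largest among the tested genes at day 2 against day 0, 8.85-fold (log2 fold change 3.15, SE 0.36, adjusted p = 1.17e-09, edgeR), and it was 7.75-fold at day 6 against day 0 (log2 fold change 2.96, SE 0.36, adjusted p = 5.38e-09, edgeR). Between days 2 and 6 the log2 fold change was -0.19, with a 95% interval of -0.85 to 0.47 (adjusted p = 0.633, edgeR).

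Cdkn1b encodes p27Kip1, the inhibitor that accumulates in quiescent cells. It had 141 to 229 CPM at day 0 (median 187), 91.8 to 117 CPM at day 2 (median 103) and 133 to 225 CPM at day 6 (median 175). Every day 2 library lay below every library of the other days. Cdkn1b fell by 0.83 on the log2 scale at day 2 (SE 0.09, adjusted p = 3.28e-10, edgeR) and rose by 0.80 from day 2 to day 6 (SE 0.09, adjusted p = 1.57e-09, edgeR). Day 6 against day 0 gave -0.04 (95% interval -0.22 to 0.14, adjusted p = 0.729, edgeR), but with library size alone as scaling it gave -0.23 and passed the threshold (adjusted p = 0.0175, edgeR). The ratio of Cdkn1a to Cdkn1b per kilobase had a median of 0.0678 before induction, which became 1.39 on day 2 and 0.755 on day 6. With Cdkn1c at 1 count or fewer, at or under the limit of 3 counts that a count of 0 allows, the family was made up of these 2 genes.

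In the Ink4 family Cdkn2a and Cdkn2b fell together, Cdkn2c rose, and Cdkn2d dipped and recovered. Cdkn2a, the locus of p16Ink4a and p19Arf, had 312 to 508 CPM at day 0 (median 449), 164 to 268 CPM at day 2 (median 216) and 218 to 302 CPM at day 6 (median 261). All day 0 libraries were above all libraries of days 2 and 6. It fell by 0.98 on the log2 scale at day 2 (SE 0.09, adjusted p = 1.07e-11, edgeR) and was 1.63-fold lower at day 6 than at day 0 (adjusted p = 1.67e-08, edgeR). The increase from day 2 to day 6 was 1.20-fold (adjusted p = 0.0104, edgeR) and did not pass in clone 48 alone (log2 fold change 0.22, adjusted p = 0.24, edgeR).

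Cdkn2b, which encodes p15Ink4b and is known as a target of TGF-β signalling, had 45.9 to 89.2 CPM at day 0 (median 60.1), 13.7 to 23.1 CPM at day 2 (median 18.1) and 22.9 to 36.7 CPM at day 6 (median 27.7). Day 0 again lay above both later days without overlap. It fell by 1.79 on the log2 scale at day 2 (SE 0.09, adjusted p = 4.96e-19, edgeR), a 3.46-fold decrease, and regained 0.67 from day 2 to day 6 (SE 0.09, adjusted p = 3.14e-08, edgeR). Across the 36 libraries its log2 levels correlated with those of Cdkn2a (Pearson's r = 0.87), libraries that share their day and cell line.

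Cdkn2c, which encodes p18Ink4c, was the member whose days were most clearly apart. Its levels were 90.5 to 177 CPM at day 0 (median 120), 234 to 309 CPM at day 2 (median 275) and 399 to 694 CPM at day 6 (median 518), with no overlap between any 2 days. The rise was 2.19-fold at day 2 (log2 fold change 1.13, SE 0.09, adjusted p = 6.56e-14, edgeR) and 4.21-fold at day 6 against day 0 (log2 fold change 2.07, SE 0.09, adjusted p = 6.94e-21, edgeR). It was higher at the later day in 12 of 12 series for each of the 3 comparisons of days.

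Cdkn2d, which encodes p19Ink4d, had 31.1 to 49.5 CPM at day 0 (median 41.6), 16.8 to 29.8 CPM at day 2 (median 22.3) and 36.1 to 65.6 CPM at day 6 (median 50.3). The day 2 libraries lay below all others. It fell by 0.86 on the log2 scale at day 2 (SE 0.06, adjusted p = 4.75e-14, edgeR) and rose 2.27-fold from day 2 to day 6 (SE 0.06 on the log2 scale, adjusted p = 2.28e-17, edgeR). Day 6 exceeded day 0 by 0.33 (SE 0.06, adjusted p = 2.97e-05, edgeR) and in 12 of 12 series, although the ranges overlapped. With library totals in place of TMM that difference was 0.14 (adjusted p = 0.0452, edgeR).

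**Figure D3:**
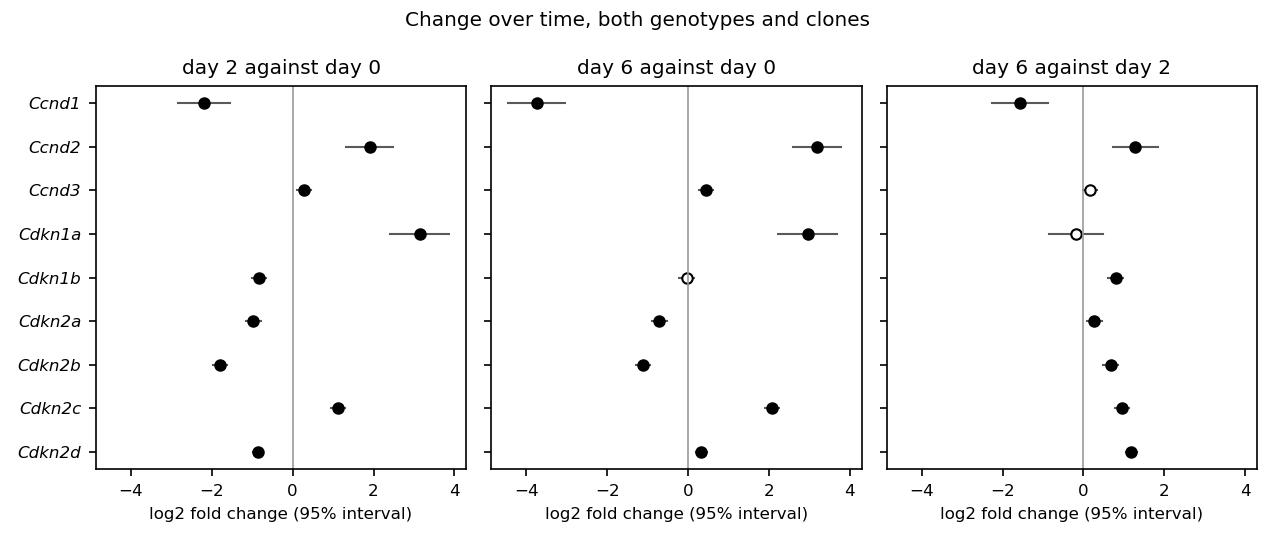
Log2 fold change of each tested gene between days (x axis, with 95% intervals as bars) for day 2 against day 0, day 6 against day 0 and day 6 against day 2, over 36 libraries. Filled points passed an adjusted p under 0.05. Ccnd1 lies left of 0 in all 3 panels, and Ccnd2, Ccnd3 and Cdkn2c lie right of 0. Cdkn1a, Cdkn1b, Cdkn2a, Cdkn2b and Cdkn2d change side between the first and the last panel. In the last panel Ccnd3 and Cdkn1a did not pass.

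Per kilobase, Cdkn2a was the highest of all members on each day (364 ± 57.7, 185 ± 30.9 and 223 ± 23.4 CPM per kb at days 0, 2 and 6, n = 12 libraries each). At day 0 it stood far above Cdkn2c (46.9 ± 9.40), Cdkn2b (44.9 ± 8.75) and Cdkn1b (40.2 ± 6.24), which overlapped each other within 1 SD, followed by Cdkn2d (25.6 ± 4.33). The cyclins and Cdkn1a made up the lower end, between 2.24 and 4.97 CPM per kb on average. At day 6 Cdkn2c (197 ± 32.6) overlapped Cdkn2a within 1 SD. The ratio of Cdkn2c to Cdkn2a had a median of 0.114 before induction, 0.570 on day 2 and 0.854 on day 6, when it ranged up to 1.39. Cdkn1b, Cdkn2d, Cdkn1a, Cdkn2b and Ccnd2 followed at day 6, each overlapping the next within 1 SD, then Ccnd3 (6.76 ± 1.23) and Ccnd1 (0.256 ± 0.0940).

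RxraSA against RxraWT, the comparison for which the study was designed, gave no call. On none of the 3 days did any of the 9 tested genes pass the threshold by edgeR's quasi-likelihood test, and 0 had an unadjusted p under 0.05 (smallest 0.166 before induction, 0.413 by day 2 and 0.391 by day 6). Among all genes 0 were called on each day (0.0%), with 139, 162 and 125 at an unadjusted p under 0.05. DESeq2 likewise called 0 of the 9 and 0 of all genes on each day, with 233, 258 and 231 genes at an unadjusted p under 0.05. The fold changes of the 9 genes lay between -0.18 and 0.17 on the log2 scale at day 0, between -0.23 and 0.10 at day 2 and between -0.32 and 0.11 at day 6. Neither fit held a term for the spread that same-numbered libraries of the 2 alleles shared. Both gave fewer genes at an unadjusted p under 0.05 than the absence of any difference would, so they were conservative. The lack of a call in them does not show that the alleles are equal.

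The width of the intervals differed between genes. For Cdkn1b the 95% interval at day 2 ran from -0.26 to 0.25 on the log2 scale, and for Cdkn2c from -0.26 to 0.23. For Cdkn2d at day 6 it ran from -0.12 to 0.24. For Ccnd1 at day 6 the interval was -1.37 to 0.73, for Ccnd2 at day 0 it was -0.97 to 0.61, and for Cdkn1a at day 2 it was -0.98 to 0.89, all in the fit without a term for the replicate number. With the replicate number as a block the intervals of these 3 were -1.32 to 0.61, -0.73 to 0.31 and -0.40 to 0.55. With a term for each pair of same-numbered libraries of a clone and day they narrowed to -0.80 to 0.11, -0.53 to 0.07 and -0.26 to 0.41. In that last fit the interval of Cdkn2c at day 0, from 0.03 to 0.29, left out 0, and its adjusted p was 0.807 (edgeR). Cdkn1a at day 2 had 45.4 to 200 CPM in the RxraSA libraries (median 113) and 47.3 to 237 CPM in the RxraWT libraries (median 116). In pairs of RxraSA and RxraWT libraries that shared clone, day and replicate number, Cdkn2b was higher in RxraSA in 6 of 6 pairs at day 2 (median log2 ratio 0.08, from 0.02 to 0.31), and its adjusted p was 1 (edgeR). The other genes were higher in RxraSA in 1 to 5 of 6 pairs. Whether the alleles differed in their change over time was tested as an interaction, and 0 of 9 genes passed for any pair of days (0.0% of all genes, smallest unadjusted p of the 9 = 0.279).

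**Figure D4:**
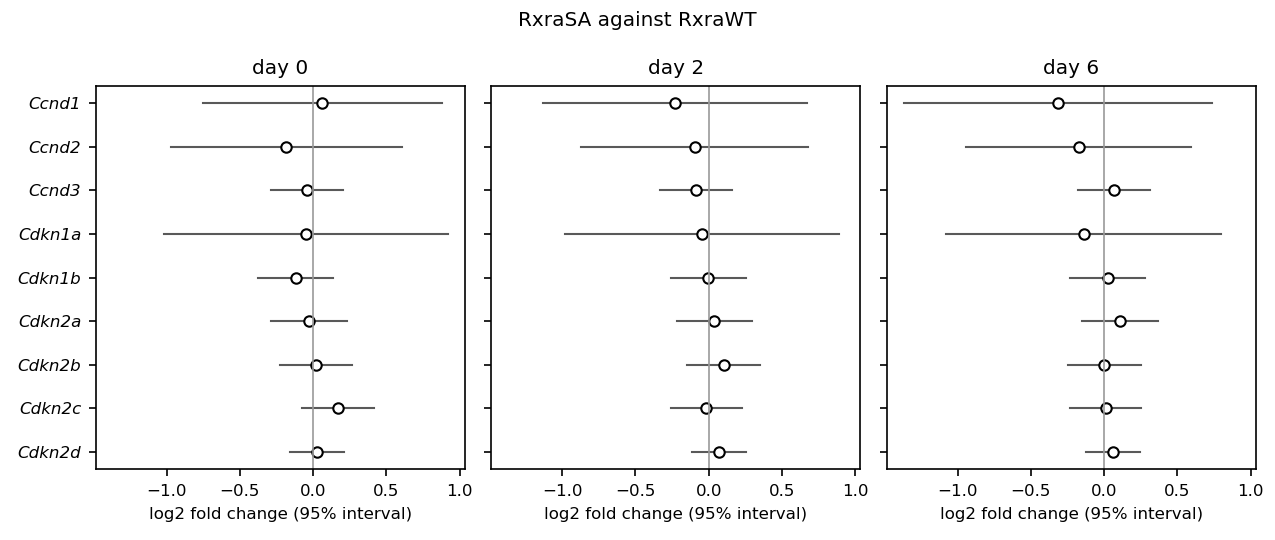
Log2 fold change of RxraSA against RxraWT for each tested gene (x axis, 95% intervals as bars) at days 0, 2 and 6, with 6 libraries per allele and day. Every interval, from the fit without a term for the replicate number, includes 0, and the bars of Ccnd1, Ccnd2 and Cdkn1a are the widest.

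Ccnd1, Ccnd2 and Cdkn1a were higher in clone 66 than in clone 48 at day 0, while Cdkn2b and Cdkn2d were lower. Before induction, 5 of 9 tested genes passed the threshold between clone 66 and clone 48, beside 23.7% of all genes. By day 2 it was 2 of 9 (30.0%), and by day 6 again 2 of 9 (26.2%). Ccnd1 at day 0 had 15.3 to 37.9 CPM in clone 66 (median 20.1) and 4.19 to 18.5 CPM in clone 48 (median 6.23). The clone 66 libraries were higher by 1.42 on the log2 scale (SE 0.34, adjusted p = 0.00208, edgeR), with some overlap. Ccnd2 at day 0 was higher by 1.37 (SE 0.40, adjusted p = 0.0117, edgeR) and Cdkn1a by 1.51 (SE 0.50, adjusted p = 0.0258, edgeR). The last 2 calls rested on single libraries: without the third RxraWT library of clone 66 at day 0 the Ccnd2 difference was 0.98 (adjusted p = 0.0844) and that of Cdkn1a 1.18 (adjusted p = 0.113), and without the third RxraSA library of that clone and day they were 1.09 (adjusted p = 0.0618) and 1.38 (adjusted p = 0.0674, all edgeR). For Cdkn1a the call was also lost without any 1 of 5 other day 0 libraries, namely clone 48 RxraWT numbers 1 and 3, clone 48 RxraSA numbers 1 and 2 and clone 66 RxraSA number 2, with adjusted p-values between 0.0519 and 0.0689 (edgeR).

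Cdkn2d was lower in clone 66 on each day, with log2 fold changes of -0.41 before induction (adjusted p = 0.000912), -0.46 on day 2 (adjusted p = 0.000263) and -0.42 on day 6 (adjusted p = 0.000778, all edgeR). At day 2 its 6 libraries of clone 66 (16.8 to 21.1 CPM) lay below all 6 of clone 48 (23.4 to 29.8 CPM). Cdkn2b was lower in clone 66 at day 0 (log2 fold change -0.40, adjusted p = 0.00767, edgeR) and at day 2 (-0.40, adjusted p = 0.00796, edgeR), without overlap on either day. With no filter on low counts the day 2 value was -0.37 and missed the threshold (adjusted p = 0.0633, edgeR). It showed no such difference at day 6 (0.02, 95% interval -0.20 to 0.25). Groups without overlap made up 13.7% of all genes at day 0 and 18.6% at day 2. Cdkn2c was lower in clone 66 at day 6 (-0.33, adjusted p = 0.0294, edgeR), a call lost without any 1 of 14 libraries, when its adjusted p rose to between 0.0504 and 0.15, and with no filter on low counts (-0.31, adjusted p = 0.0999, edgeR). The libraries were, in both alleles unless one is named, numbers 1 of day 2 and numbers 1 and 2 of day 6 in clone 48, and in clone 66 numbers 1 and 2 and RxraWT number 3 of day 2, with RxraSA number 2 and numbers 3 of day 6. At day 0 the Cdkn2c difference just missed the threshold (-0.30, adjusted p = 0.0526, edgeR) and passed without any 1 of 10 libraries (adjusted p between 0.00642 and 0.0492), namely in clone 48 the 4 numbered 3 that are not RxraWT of day 2 or 6, RxraSA number 1 of day 6 and both numbered 2 of day 2, and in clone 66 at day 0 both numbered 1 and RxraWT number 2. It also passed when at least 1 CPM in at least 6 libraries was required (-0.31, adjusted p = 0.0352, edgeR). Rxra itself was lower in clone 66 at day 0 (log2 fold change -0.54, adjusted p = 0.0117, edgeR), and its part in the clone differences was not tested. After the omission of all libraries numbered 2, 0, 1 and 0 of the 9 genes were called at days 0, 2 and 6.

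The change over time differed between the clones for Ccnd1. From day 0 to day 2 it fell by 3.24 on the log2 scale in clone 66 alone and by 1.04 in clone 48 alone, and the difference between the clones was -2.25 (SE 0.49, adjusted p = 0.00357, edgeR). In this comparison 6.84% of all genes were called, 3.61% with a more positive and 3.23% with a more negative change in clone 66. At day 2 clone 66 had 1.85 to 3.27 CPM of Ccnd1 and clone 48 had 3.16 to 7.004 CPM, a difference that did not pass the threshold (log2 fold change -0.83, adjusted p = 0.0847, edgeR) but passed with no filter on low counts (-0.82, adjusted p = 0.0303, edgeR). Omitting all libraries numbered 2 left a difference of -2.09 in the change over time (adjusted p = 0.13, edgeR). At day 6 against day 0 its difference (-1.51, adjusted p = 0.131, edgeR) passed without the third RxraWT library of clone 48 at day 0 (-1.90, adjusted p = 0.0299, edgeR) or the third RxraSA library (-1.91, adjusted p = 0.0319, edgeR). No other gene passed at day 2 against day 0, and 0 of 9 passed for day 6 against day 0 (3.85% of all genes, 2.1% with a more positive and 1.75% with a more negative change in clone 66) or day 6 against day 2 (6.18%, with 3.03% more negative). Without the third RxraWT library of clone 66 at day 6, Cdkn2b passed for day 6 against day 2 (0.52, adjusted p = 0.0477, edgeR). With the replicate number as a block the counts were 2, 4 and 2 of 9. The block removes the part of the spread shared by same-numbered libraries that is the same on all days. Over all 16723 genes tested the counts rose as well, to 2248, 1369 and 2082, from 1144, 644 and 1033 without the block. Of the 9, those called at day 6 against day 0 were Ccnd1 (-1.62, adjusted p = 0.000967), Ccnd2 (-1.11, adjusted p = 0.0204), Cdkn1a (-1.25, adjusted p = 0.0013) and Cdkn2b (0.41, adjusted p = 0.0437, all edgeR). Cdkn2c passed with the block at day 2 against day 0 (0.37, adjusted p = 0.0189) and at day 6 against day 2 (-0.40, adjusted p = 0.0108), beside Ccnd1 (-2.35, adjusted p = 4.08e-07) and Cdkn2b (0.41, adjusted p = 0.0378, all edgeR), respectively. Whether the difference between the alleles itself differed between the clones was tested too, and 0 of 9 genes passed on any day (0.0% of all genes; smallest unadjusted p of the 9 = 0.0999).

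Within a cell line and day the 3 replicates were not equally close for all genes. The SD of the log2 level within these groups was 0.93 for Cdkn1a, 0.74 for Ccnd2 and 0.67 for Ccnd1, and between 0.14 and 0.24 for the other 6, where the median over 9726 genes was 0.23. Much of this spread was common to libraries of the 2 alleles with the same number: over 18 pairs the deviations from the group means correlated at r = 0.90 for Cdkn1a, 0.89 for Ccnd2 and 0.67 for Ccnd1, as a description. The other 6 had values from 0.33 for Cdkn2d to 0.84 for Cdkn1b, so the pattern was not particular to these 3 genes. Cdkn1a was lowest in the library numbered 1 in 4 of 4 cell lines on each day, and Ccnd2 in 4 of 4 at days 2 and 6. So were Cdkn2a at days 0 and 2, Cdkn1b at days 0 and 6 and Ccnd3 at day 2. At day 6 Ccnd2 ranged from 76.3 to 111 CPM in the 4 libraries numbered 1 and from 169 to 265 CPM in the other 8. Cdkn2b and Cdkn2c were highest in the library numbered 1 in 4 of 4 cell lines at day 6. Other transcripts moved with the numbers as well. At day 2 Mki67, a marker of cycling cells, had 248 to 367 CPM in the 4 libraries numbered 1 against 52.1 to 212 CPM in those numbered 2 and 3. At day 6 Mki67 was not higher in those numbered 1 (95.2 to 304 CPM, median 181) than in numbers 2 (median 278) and 3 (median 297). The summed pre-adipocyte and fibroblast markers at day 6 had 307 to 346 CPM in those numbered 1 against 357 to 796 CPM in the rest. The part of these transcripts in the spread of Cdkn1a and Ccnd2 was not tested. Since each number was present on all days, the comparison of days could be repeated with the number as a block. That removes only the part of the shared spread that is the same on all days. All calls of Ccnd1, Ccnd2 and Cdkn1a between days held under the block, with spread particular to a day left in.

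**Figure D5:**
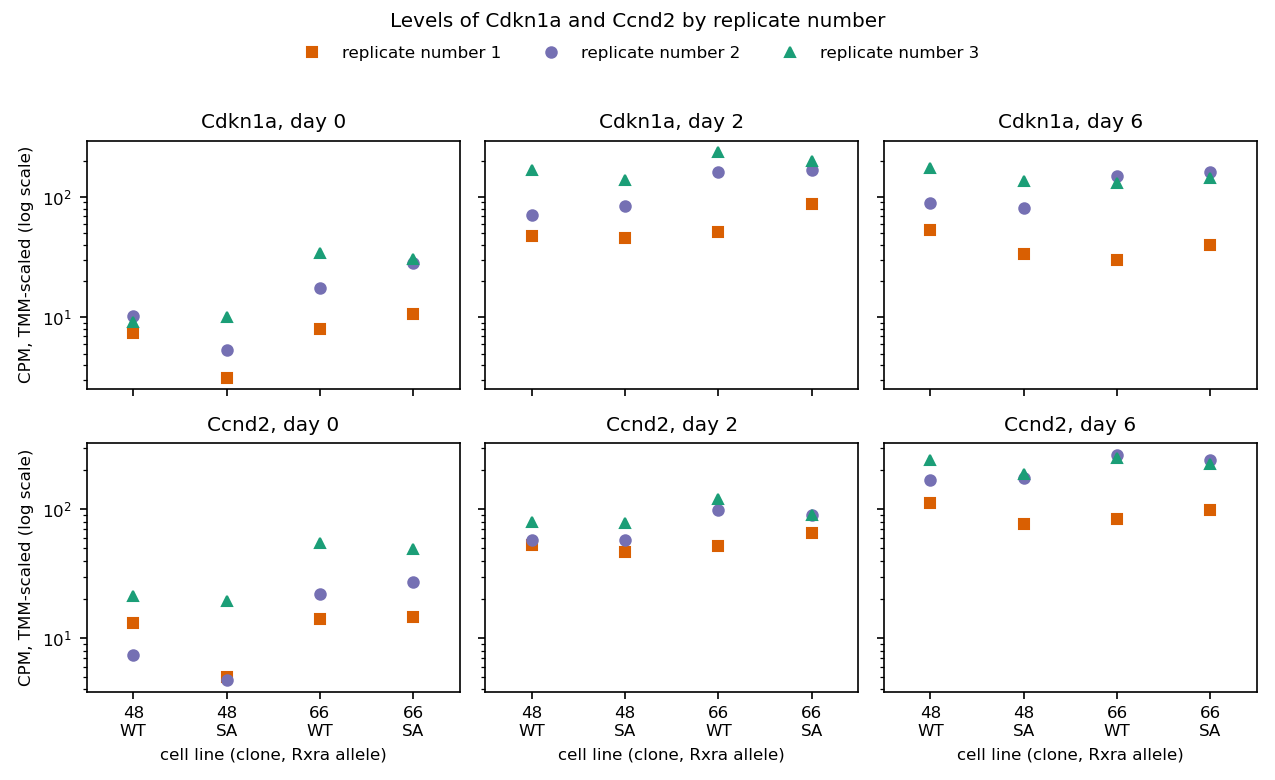
Level of Cdkn1a and Ccnd2 (CPM, TMM-scaled, log axis) in each of the 4 cell lines at days 0, 2 and 6, with colour and shape giving the replicate number in the labels. For Cdkn1a the library numbered 1 is the lowest in 4 of 4 cell lines on each day, and for Ccnd2 at days 2 and 6.

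Among the kinases and partner cyclins that work with these genes, 5 of 9 rose and 1 fell at day 2 against day 0, when 35.8% of all genes rose and 37.5% fell. At day 6 against day 0, 2 rose and 6 fell (32.9% and 35.4% of all genes). Ccne1, which encodes the cyclin E1 that activates CDK2, rose by 1.66 on the log2 scale at day 2 (SE 0.08, adjusted p = 1.18e-19, edgeR) and was still 0.97 higher at day 6. Cdc25a, a phosphatase that activates CDKs, rose by 1.07 at day 2, and Ccne2 by 0.36 at day 6. Cdk4, the main partner of D-type cyclins, fell by 0.81 at day 2 and by 1.07 at day 6 against day 0 (SE 0.09, adjusted p = 2.27e-12, edgeR), and Cdk7 fell by 0.41 at day 6. The median over the list was 0.31 at day 2 and -0.26 at day 6, beside -0.02 and -0.03 over all genes tested. Counts of rises and falls in this and the following lists depend on the scaling: with library totals in place of TMM the medians of all genes were -0.27 and -0.22, and this list had 3 rises and 4 falls at day 2 and 1 and 6 at day 6. Under that scaling all genes named from the lists kept their direction, and Rrm2 and Tyms at day 2 and Ccne2 at day 6 no longer passed (log2 fold changes 0.30, 0.01 and 0.18, adjusted p = 0.0746, 0.952 and 0.326, edgeR).

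Of 13 pocket proteins and E2F factors, 7 rose and 3 fell at day 2, and 3 rose and 2 fell at day 6 against day 0. Rb1, the retinoblastoma gene that cyclin D kinases act on, rose by 1.02 at day 2 (SE 0.07, adjusted p = 9.33e-15) and by 1.93 at day 6 (SE 0.07, adjusted p = 3.48e-22, edgeR). E2f2 rose by 1.15 and 2.77, while the repressor E2f7 fell by 1.23 at day 2 and by 0.95 at day 6. Rbl2, the gene of the pocket protein p130, fell by 0.86 at day 2, and Tfdp1, a partner of E2F factors, fell by 0.21 at day 6. Their list medians were 0.28 and -0.09, and with library totals 4 rose and 4 fell at day 2, and 3 rose and 6 fell at day 6.

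The S phase and mitosis genes moved mostly down: 3 of 21 rose and 13 fell at day 2, and 0 rose and 19 fell at day 6 against day 0, with medians of -0.34 and -0.59. Mki67 fell by 1.38 (SE 0.26) and Cdc20, an activator of the anaphase-promoting complex, by 1.27 at day 2 (SE 0.09), whereas the nucleotide synthesis genes Rrm2 and Tyms rose by 0.55 and 0.27. At day 6 Mcm5, of the replicative helicase, fell by 1.00 and the checkpoint kinase gene Bub1 by 0.91. The summed level of the 21 genes was 5839 to 7214 CPM before induction, 4598 to 6326 CPM on day 2 and 3742 to 4731 CPM on day 6, and these transcripts were thus still present at day 6, when Ccnd1 was at its lowest. With library totals in place of TMM 0 rose and 17 fell at day 2, and all 21 fell at day 6.

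Of 13 genes for the turnover of D cyclins and inhibitors, 6 rose and 2 fell at day 2, and 5 rose and 3 fell at day 6 against day 0. Skp2, the F-box protein that marks p27Kip1 for destruction, fell by 0.72 at day 2 and by 1.35 at day 6 (SE 0.11, adjusted p = 1.94e-13, edgeR). Its cofactor Cks1b rose by 0.66 at day 2. Fbxo31, an F-box protein for cyclin D1, rose by 1.00 at day 2 and by 0.70 at day 6, Gsk3b rose by 0.67 at day 6, and the ligase adaptor Ddb1 fell by 0.40 and 0.87. The list medians were 0.17 and 0.01, with 4 rises and 4 falls at day 2 and 5 and 7 at day 6 under library totals.

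Of 12 Polycomb genes, whose products repress the locus of Cdkn2a and Cdkn2b in many cell types, 3 rose and 6 fell at day 2 and 3 rose and 4 fell at day 6 against day 0. Cbx7 fell by 3.02 at day 2 (SE 0.14, adjusted p = 9.72e-20, edgeR) and by 1.24 at day 6, and Cbx2 by 1.41 and 0.84. Ring1 rose by 0.83 and 0.43. The list medians were -0.16 and -0.08, with 3 rises and 6 falls at day 2 and 2 and 8 at day 6 under library totals.

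Of 16 genes of p53 and its known targets, 8 rose and 4 fell at day 2, and 9 rose and 3 fell at day 6 against day 0, with medians of 0.25 and 0.38 (6 and 5, and 8 and 5, under library totals). Gadd45a, a growth arrest gene, rose by 2.93 (SE 0.16) and 4.62 (SE 0.17), and Sesn2 by 2.59 and 2.30. Plk2 fell by 1.22 and 1.31 and Sesn1 by 0.43 and 1.10. Trp53 itself gave -0.34 at day 2 (adjusted p = 0.333) and -0.65 at day 6 (adjusted p = 0.0671, edgeR). Of 15 transcription factors known to act on Cdkn1a, Cdkn1b or the D cyclins, 14 were tested, and 7 rose and 4 fell at day 2, and 6 rose and 3 fell at day 6 against day 0, with medians of 0.23 and 0.13 (5 and 6, and 6 and 5, under library totals). Cebpa, whose product drives adipogenesis, rose by 5.10 and 4.53 and Cebpb by 2.85 and 1.97. Klf6 fell by 1.59 and 0.40, Smad3, a mediator of TGF-β signalling, by 1.57 at day 2, and Ctnnb1 by 0.37 at day 6.

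The genes with the profile most like that of each member over the 36 libraries were found by Pearson's correlation of log2 levels among 9726 genes. These libraries share their day and cell line, and the values are a description. Cdkn2c went with Gnb5 (r = 0.99), Nr1h3 (r = 0.98) and Bnip3 (r = 0.98), and Cdkn1a with Rtn4ip1 (r = 0.97), Mdh2 (r = 0.97) and Sema4b (r = 0.97). Ccnd2 went with Gclm (r = 0.96), Map4k4 (r = 0.95) and Sdha (r = 0.95), Ccnd1 with Ppfibp1 (r = 0.93), Bid (r = 0.92) and Gm2115 (r = 0.92), and Ccnd3 with Fasn (r = 0.89) and Tmem248 (r = 0.89). Cdkn1b was most like Sspn (r = 0.96), Glb1 (r = 0.94) and Gstm1 (r = 0.94), Cdkn2a most like Cotl1 (r = 0.95), Pltp (r = 0.93) and Efemp2 (r = 0.93), Cdkn2b most like Lrrc17, Tspan6 and Lrrc49 (r = 0.97 for each), and Cdkn2d most like Ckb (r = 0.95), Cdc25b (r = 0.94) and Lctl (r = 0.94). Among the members themselves, Ccnd1 and Cdkn2c were opposed (r = -0.93) and Ccnd2 and Cdkn1a ran together (r = 0.90).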

How the data were processed

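RNA of brown pre-adipocytes was sequenced as 36 stranded total RNA libraries. Reads were mapped by the authors to mm10 using STAR 2.7.0d, and they deposited raw counts of read pairs per gene made with featureCounts 1.6.2 on GENCODE M21, without strand and without pairs that map to several places or several genes. No normalization was applied to the deposited counts. Here the counts were fitted with edgeR 4.0.16 (R 4.3.3), using filterByExpr, TMM scaling, the quasi-likelihood test in its legacy form and Benjamini-Hochberg adjustment over all 16723 genes tested. Days, alleles and their interaction were tested with a coefficient per allele and day plus the clone, as in the study's methods, and clone contrasts with a coefficient per clone, allele and day. A gene was called at an adjusted p under 0.05. Calls between alleles, and estimates for days, clones and the clones' change over time, were checked on simulated counts. These were drawn independently for each library, without spread shared by replicate numbers. Interactions with allele, fits with a replicate block and DESeq2 were not checked in this way. Levels are CPM after TMM scaling, and levels per kilobase use the union of exons. Depth was 11351078 to 24349263 counts per library.

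The members and all gene lists were chosen with earlier results of these data known. From each list, up to 2 genes with the largest rise and up to 2 with the largest fall past the threshold are named for days 2 and 6 against day 0; Trp53 was added after its values were seen. For each member the 3 genes with the highest correlation are named, out of those whose mean log2 CPM reached 3. A few genes that these rules pick are not reported here. The p53 motif was added to the search after the sequence of Cdkn1a had been seen.

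Same-numbered libraries of the 2 alleles deviated together from their group means in all 18 pairs (correlation 0.178 to 0.922, mean 0.70), so the replicate numbers pair the libraries. No 2 replicates agreed within sampling noise (lowest chi-square per degree of freedom 13.5). Alternatives were RLE and library size scaling, other filters, DESeq2 1.42.0, other forms of the edgeR test, no clone term, each clone alone, each day alone, the replicate block, and fits without each library. The omission of all libraries with 1 number, the lists under other scalings, a replicate block within each day and one shared by the clones were chosen after seeing the data.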

Additional observations from a re-analysis of the deposited data

Results flagged for a closer look

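In groups of 6 libraries of 1 allele and day, 2 of 54 groups of the 9 tested genes held a library far from the others, and chance flags about 1 in 20 groups. Ccnd1 had 7.004 CPM in the third RxraWT library of clone 48 at day 2, where the other 5 had 2.16 to 3.97 CPM. Ccnd2 had 54.3 CPM in the third RxraWT library of clone 66 at day 0, where the other 5 had 7.45 to 22.1 CPM. The change of Ccnd1 from day 0 to day 2 differed between the clones, by -2.25 on the log2 scale (clone 66 minus clone 48, adjusted p = 0.00357, edgeR), and clone cannot be told apart from library pool.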

How the results depend on the processing

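For the log2 fold changes of the 9 tested genes, 7883 values under alternative settings kept their side of the threshold, 40 passed it only under the alternative, 42 passed it only in the fit as reported and 0 called values changed sign. A change of sign between values that both missed the threshold was counted as no change. The counts of genes called between days, between alleles and for both interactions with allele stayed within 1.5 times of those reported under every setting run, and leaving out 1 library at a time gave 9 of 9 at day 2 against day 0, 8 at day 6 against day 0 and 7 to 8 at day 6 against day 2. The clone comparisons were less stable, and the cause was not tested. Some of these fits held fewer libraries. For clone 66 against clone 48 the count was 3 to 6 at day 0 and 1 to 2 at day 6 when 1 library was left out, and 1 at day 6 with no filter on low counts. For the clones' change over time it was 0 to 1 at day 6 against day 0 and 0 to 1 at day 6 against day 2 when 1 library was left out, and 1 at day 6 against day 0 with no filter on low counts. With the replicate number as a block the 3 counts of the change over time were 2, 4 and 2 of 9, beside 1, 0 and 0 without it, and over all genes 2248, 1369 and 2082, beside 1144, 644 and 1033. For the 9 genes the block changed no other call than these and that of Ccnd3 at day 6 against day 2. That block has its own terms in each clone, so it cannot estimate clone 66 against clone 48. A replicate block of 3 numbers shared by the clones, chosen after seeing the data, gave 6, 4 and 3 of 9 between the clones at days 0, 2 and 6, beside 5, 2 and 2. Over all genes those counts stayed within 1.5 times of 3956, 5011 and 4382. For the 3 changes over time the shared block gave 2, 3 and 1, with 2164, 1303 and 1969 over all genes. Between the clones the shared block added Cdkn2c at day 0 (-0.29, adjusted p = 0.00424), Ccnd1 (-0.82, adjusted p = 0.0025) and Cdkn1a (0.71, adjusted p = 0.00357) at day 2 and Ccnd3 at day 6 (0.22, adjusted p = 0.0333, all edgeR). Same-numbered libraries of the 2 clones also deviated together, at a correlation over 0.1, in 16 of 18 pairs (-0.33 to 0.89, mean 0.53). The comparisons of clone 66 against clone 48 as reported above held no term for this shared spread. After the omission of all libraries numbered 2, the counts were 0, 1 and 0 of 9 between the clones at days 0, 2 and 6 and 0 for their change from day 0 to day 2, and over all genes 1872, 2461 and 1978, beside 3956, 5011 and 4382, and 273, 151 and 222 for the 3 changes over time. After the omission of those numbered 1 the count at day 6 was 1 of 9 and that of all genes for the clones' change from day 0 to day 6 was 261. After the omission of those numbered 3 it was 1 of 9 for that change, and over all genes 559, 332 and 575 for the 3 changes. Over all genes the allele comparison gave 1 call at day 2 with a replicate block within each day, and the clone by allele interaction at day 0 gave 5 with no filter on low counts 3 with the block and 1 with that shared by the clones. Scaling by library size alone moved the median change over all genes (log2) from -0.02 to -0.27 at day 2 and from -0.03 to -0.22 at day 6 against day 0, and the share of higher calls from 48.9% to 33.6% at day 2, and from 48.2% to 34.9% at day 6 against day 0. Mean levels of the 9 genes without TMM scaling were 0.92 to 1.11 times those given, and 2 of 27 moved by more than 1 SD. Depth limits mainly Ccnd1 at day 6 and Cdkn1c.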
